A study of Mus musculus with 104 samples.

Results

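The Wwox break cluster was described here as the junctions that joined a bait break on another chromosome to the 2 Mb of mouse chromosome 8 from 116.5 to 118.5 Mb (mm9), each read name counted once per table. The window was chosen by earlier results of these junction counts, which had shown a gain in it, so its levels and fold changes are given as a description and carry no p-value. It held 1596 of 2018794 junctions, and 531098 of all junctions lay more than 5 Mb from the bait break of their own pool. High-throughput genome-wide translocation sequencing (HTGTS) with linear-amplification PCR had been run on genomic DNA: it starts from 1 known bait break and reads the prey sequence to which that break was joined. The samples were neural progenitor cells (NPC) induced from embryonic stem cells (ESC), under aphidicolin (APH) or under DMSO, and ESC under APH or DMSO. NPC and ESC each came as line 1 and line 2, with bait breaks on chromosomes 7, 12 and 15, which made 6 pools per condition and 24 pools over the 4 conditions, put together from 104 labelled experiments. Pools held 12526 to 88587 junctions more than 5 Mb from the bait break in NPC and 4713 to 12945 in ESC, so that ESC shares rest on fewer junctions. Every group was Xrcc4-/- p53-/- on a C57BL6/129SVE background, so no group in these data joins breaks with XRCC4. The sources used here give neither the APH dose, nor how bait breaks were made, nor the number of clones behind a line, and junction tables hold no expression with which to check the NPC label.

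Wwox encodes a WW-domain oxidoreductase, is one of the largest mouse genes, and its human counterpart spans the common fragile site FRA16D. Common fragile sites are stretches that break when replication is slowed, for which low doses of APH, an inhibitor of replicative DNA polymerases, are the usual agent. XRCC4 works with DNA ligase IV in classical end joining, without which ends are joined by alternative routes that often use a few bases shared by both ends, called microhomology. Loss of p53 lets cells that lack XRCC4 survive their unjoined breaks.

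The shape of a Wwox junction is shown by 1 read per bait and strand from APH pools, each the read nearest to the median position of its strand among those with the most common overlap of 2 bases. Each sequence runs from 20 bases of bait through the overlap, in capitals, to 20 bases of chromosome 8. A plus-strand junction carries sequence that runs from the junction towards higher coordinates, and a minus-strand junction carries sequence that runs towards lower ones.
bait chromosome 7, minus strand, position 117315183: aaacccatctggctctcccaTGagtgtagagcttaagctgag
bait chromosome 7, plus strand, position 117490989: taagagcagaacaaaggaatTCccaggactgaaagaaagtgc
bait chromosome 12, minus strand, position 117325255: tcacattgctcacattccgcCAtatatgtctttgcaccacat
bait chromosome 12, plus strand, position 117448577: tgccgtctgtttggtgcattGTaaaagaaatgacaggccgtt
bait chromosome 15, minus strand, position 117275539: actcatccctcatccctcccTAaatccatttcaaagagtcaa
bait chromosome 15, plus strand, position 117458769: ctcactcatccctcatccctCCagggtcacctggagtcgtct
For each bait the minus-strand example lies at a lower position than the plus-strand example, which follows from the choice by strand median. The position of the bait 7 minus-strand example was also read in ESC line 2 under DMSO.

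The place of the window relative to genes could be marked by reads that hold RefSeq promoter sequence. A read placed at 116041105 to 116041194 matched the promoter of 4930571O06Rik over 90 of 90 bases, and a read placed at 118243507 to 118243666 matched that of Gm51552 over 101 of 101 bases. In the order of RefSeq genes (GRCm38.p6) 22 genes lie between these markers, 8 of them protein-coding, with Wwox between its protein-coding neighbours Clec3a on the lower side and Maf on the higher side. Exon and intron borders in mm9 were not used here.

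Some NPC pools held the same libraries. The NPC tables for bait 15 of line 1 and line 2 had 8 pairs of experiments that shared 64.8% to 84.5% of the positions of the smaller one (same position and strand, off the bait chromosome), whereas the other 88 pairs across these pools shared at most 7.59%. In 4 of the 8 pairs the treatment labels were opposite, APH in one line and DMSO in the other. A further 11 experiment pairs across pools shared at least 10% of positions, the most 44.0%, and 6 of these joined an NPC and an ESC pool. Within ESC pools 16 experiment pairs shared at least 10%, the most 50.6% in line 2 bait 12 under DMSO, and within NPC pools 0 did. Experiments of an ESC pool are therefore not all independent units. In the window, 404 of 705 junctions of NPC under APH and 194 of 383 under DMSO had their position, strand and bait in another pool, and in ESC 32 of 419 under APH and 25 of 89 under DMSO did. Mean NPC shares and the exact tests therefore count the bait 15 pair once, as the mean of both lines. The edgeR fits, pool ratios and correlations use all 24 pools. Sums over the NPC pools, such as those of position, strand and overlap length, also count the shared bait 15 libraries in both lines. Bait 15 gave 458 of the 705 NPC window junctions under APH and 241 of the 383 under DMSO.

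In the libraries found in both tables, the 2 readings of a library gave like window shares whether or not the treatment labels matched. A library labelled APH in line 1 held 70 window junctions in 16753 (0.418%), and the same library labelled DMSO in line 2 held 72 in 16289 (0.442%). Experiments with 1 treatment in both tables gave 0.292% (143 of 48971, exact 95% interval 0.246 to 0.344) under APH in line 1 against 0.178% (40 of 22506, 0.127 to 0.242) under DMSO. In line 2 they gave 0.282% (151 of 53489, 0.239 to 0.331) under APH against 0.173% (35 of 20247, 0.120 to 0.240) under DMSO. Experiments with opposite labels gave 0.348% (138 of 39616, 0.293 to 0.411) under APH in line 1 against 0.225% (31 of 13790, 0.153 to 0.319) under DMSO. In line 2 the order was the other way, 0.195% (26 of 13341, 0.127 to 0.285) under APH against 0.352% (135 of 38354, 0.295 to 0.416) under DMSO. The 13341 include 263 junctions of experiment A, for which no partner library was found and which held 0 window junctions. The values of both lines are 2 readings of the same libraries, not 2 replicates.

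**Figure D1:**
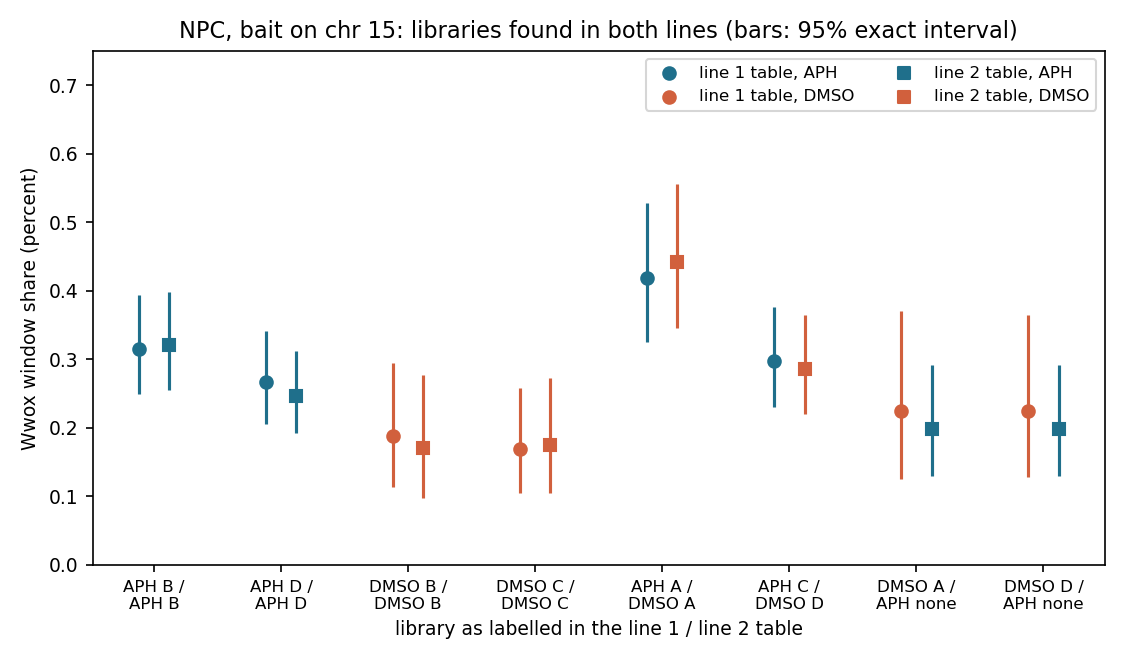
Wwox window share (percent of junctions more than 5 Mb from the bait break) of the 8 NPC bait 15 libraries found in the tables of both lines, circles for line 1 and squares for line 2, coloured by the treatment label, with exact 95% binomial intervals. The 4 libraries on the right carry opposite labels, and the rows of line 2 without an experiment letter appear beside both of their partners. Both tables place each library at a like share, such as 0.418% and 0.442%.

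The window took a larger share of junctions in APH-treated ESC than in any other condition. The share in ESC under APH was 0.447% in the lowest pool, 0.843% at the median and 1.18% in the highest, against 0.0838%, 0.213% and 0.441% under DMSO. All 6 APH pools lay above the highest DMSO pool, but the gap was small. The lowest APH pool (line 1 bait 12, interval 0.317 to 0.614) and the highest DMSO pool (line 2 bait 7, 0.286 to 0.650) had overlapping intervals. As shares of junctions off the bait chromosome their order was reversed, 0.527% under APH against 0.571% under DMSO. With junctions more than 5 Mb from the bait break as the base, the mean was 0.812% ± 0.293 under APH and 0.224% ± 0.138 under DMSO (SD, n = 6 pools each). In NPC the lowest, median and highest pool had 0.192%, 0.239% and 0.317% under APH, against 0.160%, 0.194% and 0.290% under DMSO. These ranges overlapped, and the means were 0.235% ± 0.0391 under APH and 0.205% ± 0.0412 under DMSO (SD, n = 5, the bait 15 pair as 1). A larger share can come from more cells with a break, more breaks per cell or more joining of the same breaks, which these counts cannot tell apart.

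**Figure D2:**
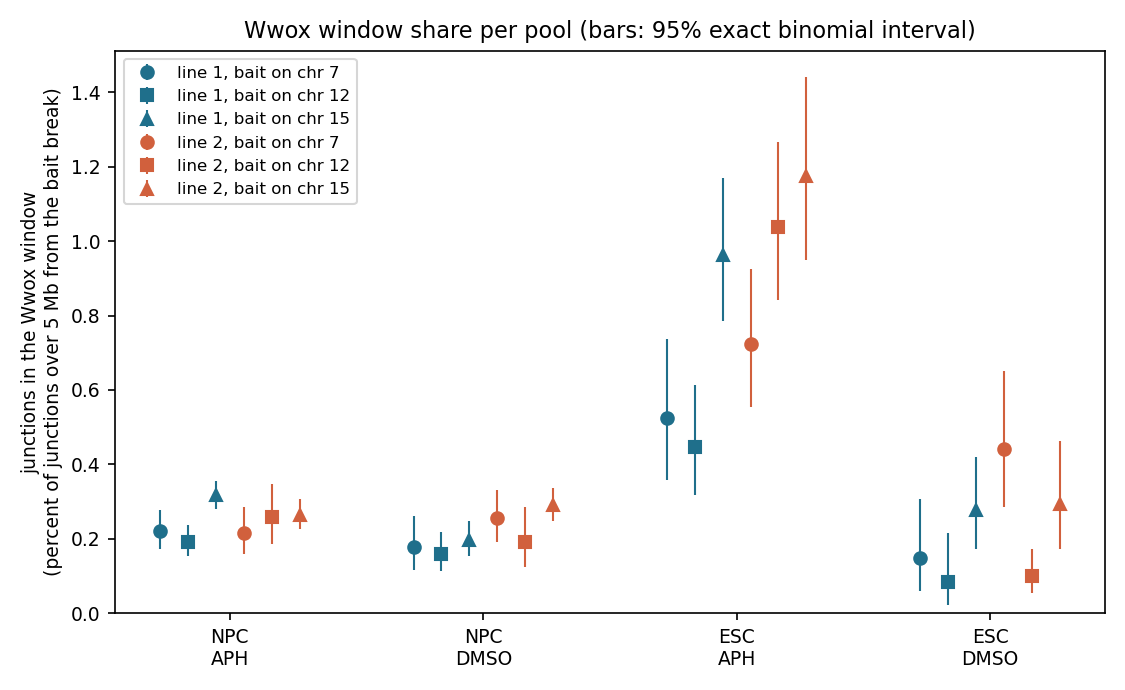
Share of junctions in the Wwox window (percent of junctions more than 5 Mb from the bait break) in each of the 24 pools, by condition, with exact 95% binomial intervals; colour gives the line and shape the bait. The 6 ESC pools under APH sit between 0.447% and 1.18%, all above the NPC pools, whose highest value is 0.317%.

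With APH the window's share was 4.21-fold higher in ESC (log2 fold change 2.07 ± 0.28, SE, edgeR fit over 24 pools with a block per cell type, line and bait). Pool by pool, the ratio of APH to DMSO in ESC ran from 1.64 for line 2 bait 7 to 10.3 for line 2 bait 12, with a median of 3.77, and it was above 1 in 6 of 6 pairs. In NPC the same fold change was 1.25 (log2 0.32 ± 0.23, SE), with pool ratios from 0.846 to 1.62 and 4 of 6 above 1. The 2 pools below 1 were line 2 bait 7 and line 2 bait 15. The NPC log2 fold change was 0.49 with only those bait 15 libraries that carry 1 treatment in both tables, and 0.31 without bait 15 in NPC. It was 0.10 ± 0.38 without line 1 and 0.55 ± 0.27 without line 2 (SE), and a difference between the lines was not tested. The NPC fold change lay 1.76 ± 0.37 (SE) below the ESC one on the log2 scale.

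Under APH the share in NPC was 0.310-fold that in ESC (log2 fold change -1.69 ± 0.27, SE), and it was lower in 6 of 6 pairs of line and bait, by 2.33-fold to 4.44-fold. Under DMSO the log2 fold change was -0.01 ± 0.32 (SE), with NPC higher in 3 of 6 pairs and ratios from 0.577 for line 2 bait 7 to 1.91 for bait 12 in both lines. With single experiments as units it was 0.63 ± 0.29 (SE). That fit lacked the ESC DMSO pools of bait 7, whose experiment letters did not match the labels. These comparisons use the same pools as the APH comparisons and are not separate evidence. As background, the fit over 1215 windows of 2 Mb, with calls at an adjusted p under 0.05 (edgeR's quasi-likelihood test, adjusted after Benjamini and Hochberg), called 68 windows (5.6%) for APH in NPC, 5.43% higher and 0.165% lower. It called 11 (0.905%) for APH in ESC, all of them higher. For the difference of the APH fold changes it called 3 (0.247%), 0.0823% higher and 0.165% lower. For NPC against ESC it called 95 (7.82%) under APH, 4.69% higher and 3.13% lower, and 5 (0.412%) under DMSO, 0.0823% higher and 0.329% lower. The Wwox window was chosen from these contrasts, so nothing is read from its place among them.

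Sequencing runs, taken from the read names, could be matched for part of this. All 12 blocks of cell type, line and bait had a run that read both treatments. Counts were summed over the shared runs of a block, 1 to 7 runs, and most sums equal the whole-pool values. In these sums the ESC share was higher under APH in 6 of 6 blocks, by 0.282 to 0.938 percentage points. Single runs did not all keep this order. For ESC line 2 bait 7, 1 of 2 shared runs gave 0.113% under APH (2 of 1776) against 0.296% under DMSO (3 of 1013). The other gave 0.883% (60 of 6797) against 0.472% (22 of 4657). Runs of both orders were also seen for ESC line 1 bait 7. In NPC the share was higher under APH in 5 of 6 blocks, with differences of -0.0252 to 0.122 points. Both ends of that range are bait 15 blocks, which hold the same libraries with part of the treatment labels opposite. Without bait 15 the NPC differences ran from 0.0319 to 0.0657 points. For line 2 bait 7 in NPC the shared runs gave 0.221% under APH (43 of 19448) against 0.172% under DMSO (12 of 6972), the opposite direction to the whole pools. Only line 1 bait 15 had a run that read both cell types: there NPC held 0.317% (281 of 88587, 0.281 to 0.356) and ESC 1.31% (52 of 3979, 0.978 to 1.71) under APH. Under DMSO the same run gave 0.196% in NPC (71 of 36296, 0.153 to 0.247) and 0.292% in ESC (16 of 5479, 0.167 to 0.474). Some of these NPC bait 15 libraries carry the opposite treatment label in line 2. In the other 5 pairs of line and bait the run and the cell type cannot be told apart.

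The level in APH-treated ESC varied by bait and line. Bait 15 gave the highest share in both lines, 0.963% in line 1 and 1.18% in line 2, followed in line 2 by bait 12 at 1.04% and bait 7 at 0.723%. In line 1 bait 7 at 0.523% and bait 12 at 0.447% had overlapping intervals (0.358 to 0.738 and 0.317 to 0.614). Line 2 lay above line 1 for each bait, with intervals apart for bait 12 alone. Under DMSO in ESC, bait 12 was lowest in both lines with 4 of 4775 and 13 of 12945 junctions. Single experiments of the ESC APH pools ran from 0% to 1.98% with a median of 0.690% over 28 experiments, and 23 of them lay above the highest of 19 NPC APH experiments (0.418%), as they did above the highest of the 15 that are not of bait 15 (0.361%). The 16 ESC DMSO experiments with a label had a median of 0.132% and a maximum of 0.639%, and 14 of the 28 ESC APH experiments lay above that. None of these 16 was of bait 7, whose ESC DMSO letters did not match the labels, while the 28 include bait 7. Some experiments of the same ESC pool share positions, so these counts of experiments are a description. The line 2 pool of bait 7 was the highest of ESC under DMSO (0.441%). Without bait 15, whose libraries recur across lines and treatments, the 15 NPC APH experiments had a median of 0.209%, against 0.180% for 16 NPC DMSO ones, with overlapping ranges.

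The junctions gathered in the middle of the window. The inner 1 Mb, from 117.0 to 118.0 Mb, held 92.8% of the window's junctions in ESC under APH (389 of 419) against 68.5% under DMSO (61 of 89). In NPC it held 79.0% under APH (557 of 705) against 67.4% under DMSO (258 of 383). The bin from 117.0 to 117.5 Mb was the fullest of the 4 bins of 500 kb in every condition, with 72.8% of window junctions in ESC under APH, 43.8% in ESC under DMSO, 48.9% in NPC under APH and 42.3% in NPC under DMSO. In that bin the log2 fold change with APH was 0.68 ± 0.38 in NPC and 2.88 ± 0.44 in ESC (SE), and in the bin from 116.5 to 117.0 Mb it was -0.38 ± 0.36 in NPC and 0.42 ± 0.59 in ESC.

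The window's junctions lay closest together in ESC under APH. From the lower to the upper quartile they spanned 239 kb in ESC under APH, from 117.255 to 117.494 Mb, against 727 kb under DMSO with 89 junctions. In NPC they spanned 418 kb under APH, from 117.220 to 117.638 Mb, against 647 kb under DMSO. This span covers all junctions of the window, so it also falls as the middle gains over its surroundings. A width of the cluster alone was not measured. The window held 5.70 times the mean of the 2 Mb on either side in ESC under APH and 1.35 times under DMSO. In NPC it held 2.54 times under APH and 1.88 times under DMSO. The medians lay close together, at 117.398 Mb in NPC under APH, 117.423 Mb in NPC under DMSO, 117.361 Mb in ESC under APH and 117.387 Mb in ESC under DMSO. No single 1 kb stretch carried the cluster: the fullest held 12 junctions over all pools. The fullest 50 kb bins held 52 and 48 junctions in ESC under APH, at 117.3 and 117.4 Mb, and 59 and 51 in NPC under APH, at 117.25 and 117.3 Mb.

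The 2 Mb on either side gave a local level. Per Mb, the inner window held 10.6 times as many junctions as the flanks (114.5 to 116.5 and 118.5 to 120.5 Mb) in ESC under APH and 1.85 times as many under DMSO. In NPC the ratio was 4.01 under APH and 2.53 under DMSO. The flanks together held 0.273% ± 0.130 of junctions in ESC under APH and 0.310% ± 0.0754 under DMSO (SD, n = 6 pools each), with overlapping ranges. They held 0.177% ± 0.0518 in NPC under APH and 0.232% ± 0.0577 under DMSO (SD, n = 5, the bait 15 pair as 1).

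**Figure D3:**
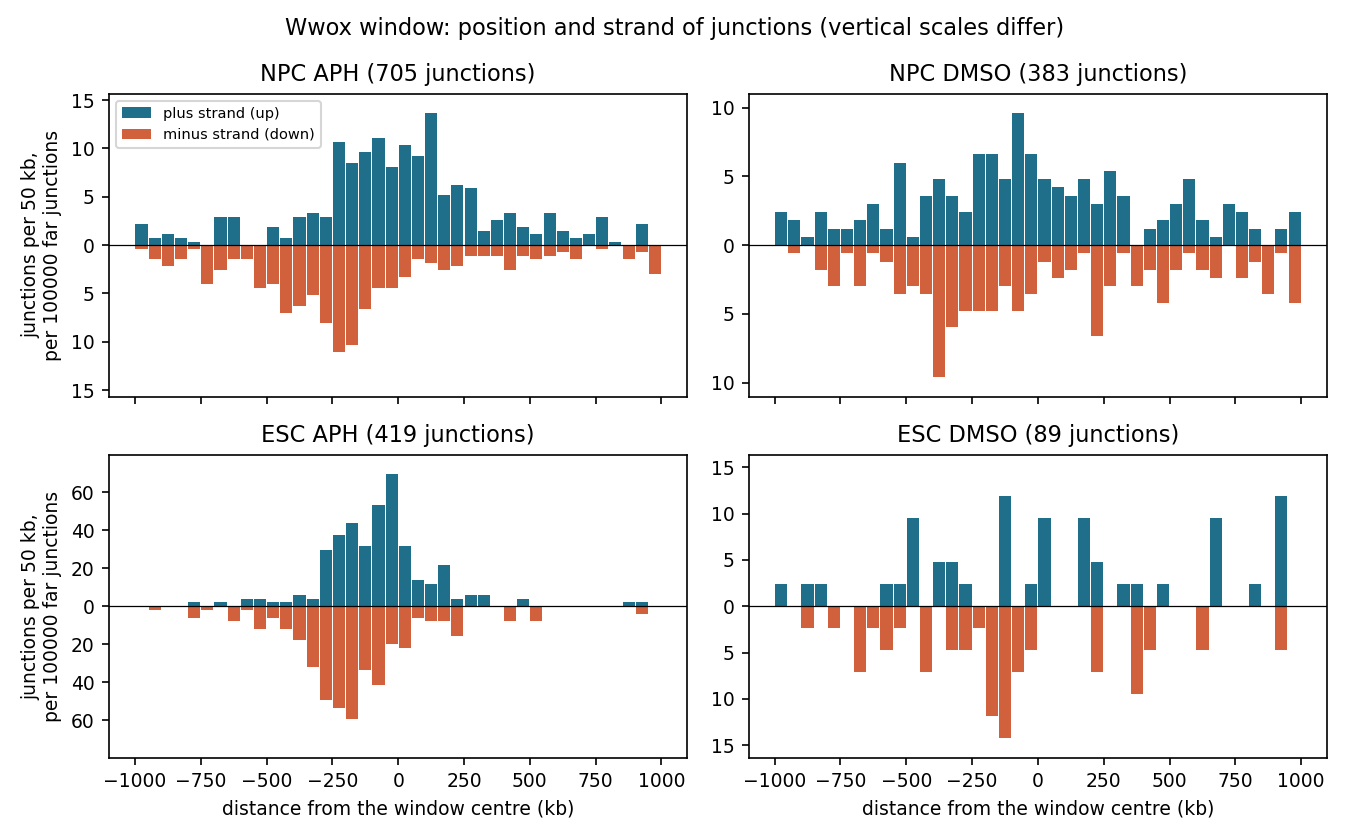
Junctions per 50 kb in the Wwox window, scaled by the junctions more than 5 Mb from the bait break, against distance from the window centre (kb), with plus-strand junctions upward and minus-strand junctions downward; vertical scales differ between panels. Under APH the minus-strand bars gather left of the centre and the plus-strand bars reach further right, in NPC (705 junctions) and in ESC (419 junctions).

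Under APH the strands took different sides of the cluster. In NPC the median plus-strand junction lay at 117.510 Mb and the median minus-strand junction at 117.293 Mb, and in ESC at 117.427 Mb and 117.315 Mb. Of the junctions above the median position in NPC under APH, 71.0% were plus-strand (250, against 102 minus-strand), and of those at or below it 60.3% were minus-strand (213, against 140 plus-strand). These shares were 60.8% and 65.7% in ESC under APH. Taken as shares of the whole window, plus-strand junctions made up 55.3% in NPC and 47.5% in ESC under APH (390 of 705 and 199 of 419). The NPC values here are sums over pools that count the shared bait 15 libraries in both lines.

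The distance from the minus-strand to the plus-strand median was positive in 6 of 6 NPC pools under APH, from 102 to 272 kb. With the bait 15 pair counted once the mean was 171 kb ± 60.2 (SD; two-sided exact sign-flip test, n = 5, p = 0.0625, the smallest that 5 values allow, and 0.271 adjusted over 13 tests). Without that pair it was 149 kb ± 38.7 over 4 pools. In ESC under APH the distance was positive in 5 of 6 pools, from -6.75 kb in line 2 bait 15 to 206 kb in line 2 bait 7, with a mean of 102 kb ± 70.1 (exact sign-flip test, n = 6, p = 0.0625, adjusted 0.271). NPC exceeded ESC by a mean of 61.7 kb ± 97.3 and in 4 of 5 pairs (exact sign-flip test, n = 5, p = 0.312, adjusted 0.65), which is within the spread between pairs. Without the bait 15 pair it was 27.8 kb ± 70.4 over 4 pairs. Under DMSO 5 NPC pools had at least 10 junctions per strand, and the distance ran from -296 to 342 kb with 3 of 5 positive. In ESC under DMSO 1 pool had as many, at 363 kb.

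**Figure D4:**
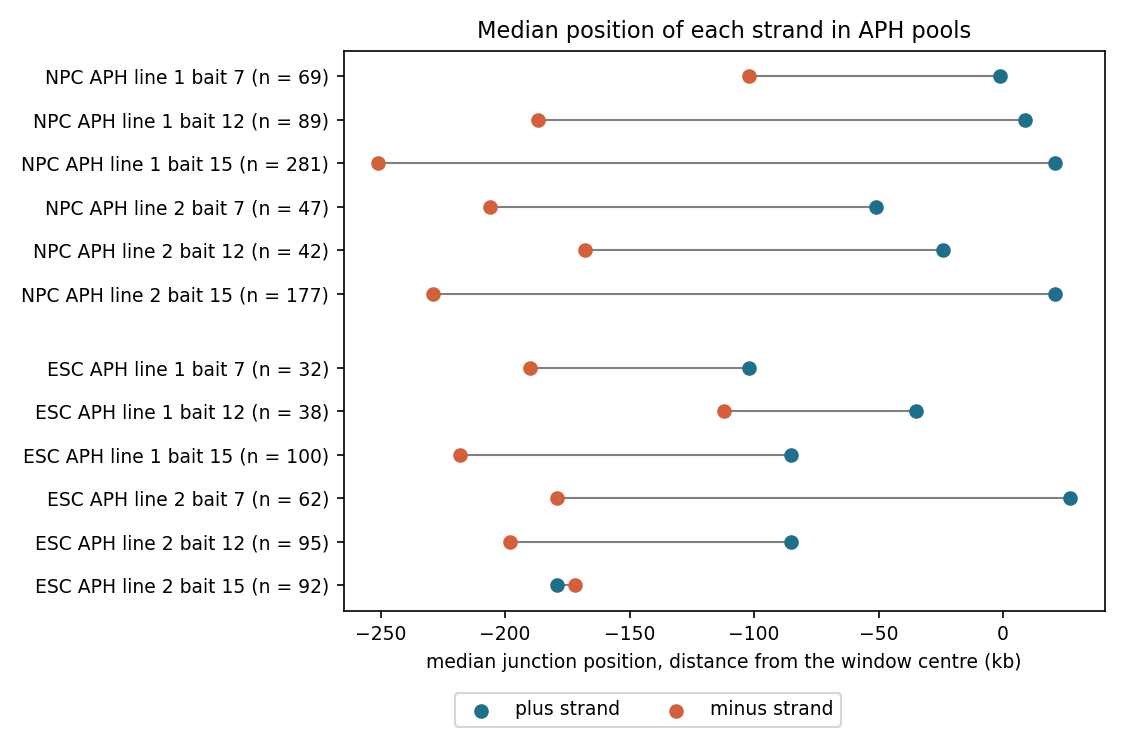
Median position of plus-strand and minus-strand junctions in the Wwox window of each APH pool, as distance from the window centre (kb), with the number of junctions per pool. The plus-strand median lies right of the minus-strand median in all 6 NPC pools and in 5 of 6 ESC pools; in ESC line 2 bait 15 they differ by -6.75 kb.

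Such a shift between strands was not rare elsewhere. In NPC under APH 866 windows of 2 Mb off the bait chromosomes had at least 50 junctions per strand. The Wwox window ranked 112 of these from the top, at 217 kb over summed pools. The median window was at 5.97 kb, with quartiles at -125 and 135 kb. These NPC sums count the shared bait 15 libraries in both lines. With APH in ESC 7 windows had as many junctions, and Wwox was the highest of them at 112 kb.

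The tests of the share of plus-strand junctions did not pass, and their values rest on line 2 bait 12. The share was 51.2% ± 7.73 in the window and 49.4% ± 0.501 outside it in NPC under APH (SD; exact sign-flip test, n = 5, p = 0.625, adjusted 0.739). It was 46.2% ± 5.82 in the window and 48.5% ± 4.59 outside it in ESC under APH (exact sign-flip test, n = 6, p = 0.125, adjusted 0.325). NPC lay above ESC in 4 of 5 pairs under APH, by 5.29 points ± 12.8 (exact sign-flip test, n = 5, p = 0.438, adjusted 0.65). Without line 2 bait 12, window minus outside was 5.06 points ± 2.59 in NPC and -3.40 points ± 1.23 in ESC, and NPC minus ESC was 10.8 points ± 4.21 (SD).

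Most Wwox junctions carried microhomology. In NPC under APH 547 of 705 junctions did, a mean of 76.4% ± 7.48 in the window against 75.6% ± 0.600 outside it (SD; exact sign-flip test, n = 5, p = 0.875, adjusted 0.875). In ESC under APH 293 of 419 did, 70.5% ± 8.22 in the window against 62.6% ± 5.56 outside it. The ESC difference was positive in 5 of 6 pools, from -0.161 to 24.7 points with a mean of 7.91 (exact sign-flip test, n = 6, p = 0.0625, adjusted 0.271), and the highest value came from line 2 bait 7, without which the mean was 4.57 ± 3.09 (SD). NPC lay above ESC within the window in 3 of 5 pairs, by 4.43 points ± 10.4 (exact sign-flip test, n = 5, p = 0.438, adjusted 0.65), or 1.79 points ± 9.89 without the bait 15 pair.

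Insertions and direct joins made up the rest. Inserted bases were seen in 18.1% ± 7.66 of window junctions and 17.3% ± 0.683 outside in NPC under APH (exact sign-flip test, n = 5, p = 0.875, adjusted 0.875). They were seen in 23.6% ± 9.69 of window junctions and 30.1% ± 6.25 outside in ESC under APH (exact sign-flip test, n = 6, p = 0.125, adjusted 0.325). The ESC difference of -6.53 points was -3.90 without line 2 bait 7. Direct joins made up 5.57% ± 5.46 in the window and 7.10% ± 0.825 outside in NPC under APH (exact sign-flip test, n = 5, p = 0.5, adjusted 0.65). For ESC under APH the shares were 5.87% ± 4.48 and 7.25% ± 1.55 (exact sign-flip test, n = 6, p = 0.5, adjusted 0.65). None of the 13 tests passed before or after adjustment. The exact sign-flip test of 6 values cannot go below p = 0.03125, so a single test could not pass once adjusted over 13. With 5 values the exact sign-flip test cannot go below p = 0.0625, so the tests with n = 5 could not pass even before adjustment. Their outcome says nothing about whether a difference exists.

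**Figure D5:**
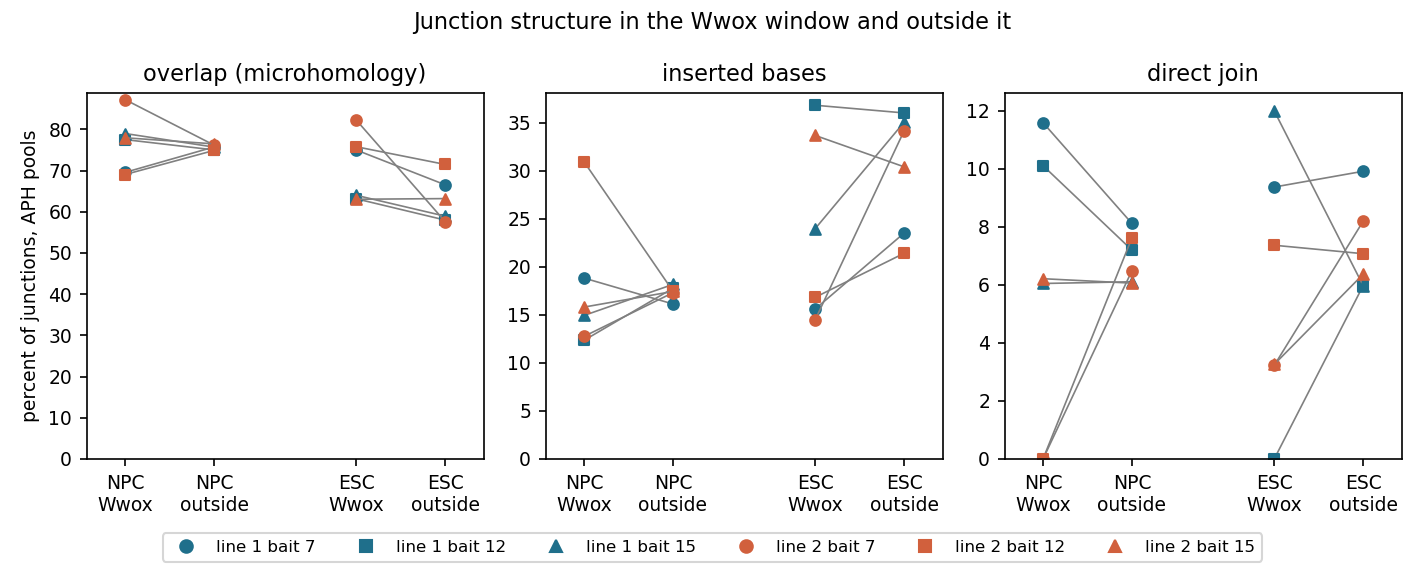
Share of junctions with overlap (microhomology), inserted bases or a direct join (percent) in the Wwox window and outside it, for each APH pool of NPC and ESC, lines joining values of the same pool; colour gives the line and shape the bait. Overlap lies higher in the window in 5 of 6 ESC pools and in 4 of 6 NPC pools, and the window values spread more widely than the values outside.

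Overlaps were short. Over all pools 319 of the 1596 window junctions overlapped by 2 bases and 311 by 3, the most common lengths, which made up 20.8% and 17.6% of junctions outside the window. Among ESC junctions under APH, overlaps of 6 bases or more made up 3.82% of window junctions (16 of 419) against 9.31% outside, and in NPC under APH they made up 9.79% (69 of 705) against 7.96% outside. The first 50 prey bases were 52.4% A or T in NPC under APH and 51.8% in ESC under APH in the window, against 54.3% and 51.5% in junctions outside it.

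Positions did not recur across baits, but in ESC they often recurred within a pool. The 1596 junctions fell on 1105 pairs of position and strand, of which 0 were found with more than 1 bait. Of these pairs 299 were found in more than 1 pool and 14, each with 1 bait, in both cell types. The most reads at 1 place were 7, on the minus strand at 117718965, all from the bait 15 pools of ESC under APH. Distinct places within a pool, as a share of its junctions, came to 95.9% in the window in NPC under APH and 95.3% under DMSO, against 95.2% and 94.8% outside it. The same share in ESC was 73.7% under APH and 75.3% under DMSO, against 82.1% and 81.8% outside. Counting each position and strand once per pool, the mean share was 0.752% ± 0.294 in ESC under APH and 0.205% ± 0.123 under DMSO (SD, n = 6 pools each), and the log2 fold change with APH was 2.03 ± 0.28 (SE). The ratio of APH to DMSO then stayed above 1 in 6 of 6 ESC pairs, with a median of 4.58. For line 2 bait 7, the lowest pair, it fell from 1.64 to 1.25 (0.538% against 0.431%, with overlapping intervals).

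Among 1118 windows of 2 Mb off the bait chromosomes, the Wwox window ranked first by mean share in ESC under APH, 14.6 times the share of the median window (0.0557%). It ranked 8 in ESC under DMSO at 3.77 times the median, 13 in NPC under APH at 4.05 times and 9 in NPC under DMSO at 3.23 times. The window most like it over the 24 pools was chromosome 5 from 130.5 to 132.5 Mb, with Pearson's r of 0.757 on log2 shares, followed by its neighbour from 132.5 to 134.5 Mb at 0.684; the median over 182 candidate windows was 0.00364. The first of these held 0.510% of junctions in ESC under APH and 0.173% under DMSO, and 0.373% in NPC under APH and 0.175% under DMSO. Chromosome 14 from 44.5 to 46.5 Mb (r = 0.656), chromosome 3 from 54.5 to 56.5 Mb (0.639) and chromosome 8 from 128.5 to 130.5 Mb (0.601) came next. The pools share libraries and line, so these values are a description.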

How the data were processed

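Junction tables of 24 pools, each 1 cell type, line, bait and treatment, hold 1 row per junction read. Per the submitters' processing notes, reads were aligned with Bowtie2 to mm9, and the versions and filters are not stated. The unit used is a count: rows of the deposited tables were counted after each read name was kept once per table, which took out 18609 of 2037403 rows. The experiments of a pool, named by letters that matched the labels in 21 of 24 tables, are separate samples per the labels, with nothing to say that they came from separate cultures, so p-values measure the spread between pools, which may be technical.

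The members and lists were chosen with earlier results of these data known. Shares are percent of junctions more than 5 Mb from the most frequent bait end of the pool, with exact (Clopper-Pearson) 95% intervals that cover counting error only. Reads carry no molecular identifier, so repeats of a position were also counted once as an alternative. Fold changes came from edgeR 4.0.16 (TMM, quasi-likelihood, R 4.3.3) on counts in 2 Mb windows, with a block per cell type, line and bait, or per line and bait between cell types. The script was tested on simulated counts. Exact two-sided sign-flip tests over pools (Python 3.11.15, numpy 2.4.6) formed 1 family of 13. They had been planned over 6 pools per group and were run with the NPC bait 15 pair as 1. Microhomology means that bait and prey alignments share at least 1 base of the read, and an insertion means at least 1 base between them. Like windows were named by Pearson's r over 24 pools on log2 shares, among windows off the bait chromosomes. DESeq2 1.42.0, other filters, bins and left-out pools were alternatives. Sequences came from the deposited reads, and promoter sequence from RefSeq (GRCm38.p6).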

Additional observations from a re-analysis of the deposited data

Results flagged for a closer look

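Of 14 groups of 6 pools examined for a pool far from the others, 1 stood out, where chance flags about 1 in 20. The share of Wwox window junctions with inserted bases was 31.0% in NPC under APH for line 2 bait 12, which had 42 window junctions, and the next highest pool was at 18.8%. The same pool had 17.5% outside the window.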

How the results depend on the processing

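Of 115 alternative fold changes 106 moved by less than the spread between pairs, as did 27 of 28 mean shares. That count does not ask whether the sign was kept. The log2 fold change of NPC over ESC under DMSO, -0.01 in the main fit, ran from -0.18 to 0.64 over its alternatives. Of 174 alternative test values 169 kept their direction. Which side of the adjusted threshold a test fell on is no sign of stability, since so few pools could not pass it singly. In the bin from 116.5 to 117.0 Mb the log2 fold changes were -0.38 for APH in NPC, 0.42 for APH in ESC, -0.79 for their difference and -0.23 for NPC over ESC under APH. The APH value in NPC was 0.68 from 117.0 to 117.5 Mb and 0.74 in the inner window, and NPC over ESC under APH was -0.82 from 117.5 to 118.0 Mb. The bin from 118.0 to 118.5 Mb held too few junctions for a fit. Of junctions off the bait chromosome the mean NPC share under APH was 0.287%. In NPC under APH, window minus outside turned to -0.0144 points for microhomology against other junctions of chromosome 8. Without junctions that pools share it was -0.72 points for the plus strand and -0.317 for microhomology. Leaving out 1 line and bait gave -1.78 to 2.52 points for microhomology and -2.43 to 2.30 for insertions in NPC, 4.57 to 9.53 and -8.49 to -3.90 in ESC. Direct joins ran from -2.79 to -0.0142 in NPC and -2.86 to -0.462 in ESC. The cause of these changes was not tested.

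With single experiments as units, NPC over ESC under APH was -1.16 with a line and bait block and -1.17 with the experiment letter as replicate block, and that block gave 0.34 for APH in NPC, 2.37 for APH in ESC, -2.04 for their difference and 0.64 for NPC over ESC under DMSO. These single-experiment fits lacked the ESC DMSO pools of bait 7 and the NPC APH pool of line 2 bait 15, whose letters did not match the labels. They also treat experiments that share positions as separate units. Deviations of experiments with the same letter had a median r of 0.00239 over 35 pairs, against 0.00282 over 105 pairs of different letters. This does not show that the letters carry no pairing. In NPC line 1 bait 12, for example, experiment A was read in the same run under APH (13918 junctions) and under DMSO (7043). Leaving out 1 line, or 1 pair of line and bait, gave 1.75 to 2.41 for APH in ESC, 0.10 to 0.55 in NPC and -2.03 to -1.40 for NPC over ESC under APH. The counts of windows called, 68 for APH in NPC, 11 for APH in ESC, 3 for their difference, 95 for NPC over ESC under APH and 5 under DMSO, were 9, 1, 0, 31 and 0 without the line and bait block and 0, 4, 0, 14 and 0 without line 1. They were 77, 20, 16, 81 and 39 of 256 windows with the letter block, and 139, 12, 10, 104 and 11 with only the NPC bait 15 libraries of 1 treatment. With each NPC bait 15 pool as 1 value, the distance between strand medians in NPC under APH was 186 kb ± 65.4 (exact sign-flip test, n = 6, p = 0.0312, the smallest possible, adjusted 0.271). In ESC under APH the distance reached the same p, unadjusted, when each position was counted once (109 kb), in the inner window (91.4 kb) and without junctions that pools share (98.0 kb; exact sign-flip tests, n = 6, p = 0.0312 each), with adjusted p of 0.203 to 0.271. The alternatives that concern shared libraries were chosen after seeing the data.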
